A study of Oryza sativa Indica Group with 36 samples.

Results

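The genes described here are the 150 rice loci whose transcripts swung most over the day among those that peaked at midnight in leaves of the parental cultivar. They were taken from 2131 candidates among 33942 loci with OS identifiers. A candidate had its highest hourly mean of log2(CPM + 0.5) at 0:00 in the parent, with a mean of at least 10 CPM, the count scaled to a library sum of 1000000, at that hour. Candidates were ranked by the highest minus the lowest hourly mean, called the range here, and the 150 widest were kept after 3 identifiers that the selection rule leaves out. The deposited files do not pair identifiers with gene names, so the genes are given by identifier and no function is assigned to them.

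Leaf RNA was sequenced in Guangluai4 (GL), an indica cultivar of rice, and in an OsPRR37 overexpression line of it, named OsPRR37-OE5 in the design text (OE), which is a single line. Both were sampled as 45-day seedlings grown in natural long days, from the uppermost fully expanded leaves, every 4 h from 4:00 to 0:00 of 1 day. Each of the 12 combinations of genotype and hour had 3 biological replicates, which gave 36 libraries. The labels do not give the promoter that drives the transgene, and whether replicates came from separate plants is not described beyond the word biological.

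Plants organise much of their gene expression around the day with a circadian clock of interlocked transcriptional loops. Pseudo-response regulators are transcriptional repressors of that clock, and each family member is expressed in its own window of the day. OsPRR37 belongs to this family and is known in rice for delaying flowering under long days. Genes that peak in the dark fall, in general, into those driven by evening and night phases of the clock and those held low by light, and a day course under natural light does not separate these kinds.

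Libraries held 8065894 to 15769659 counts. OsPRR37 itself was at 1.35 to 424 CPM in GL and 847 to 2001 CPM in OE, with no overlap. The genotype field of GL 0:00 replicate 3 names the overexpression line although its title places it in GL. OsPRR37 stood at 4.50 CPM in it, and 132 of the 150 genes were chosen again when it was left out. Of the markers of leaf tissue, 2 Rubisco small subunit genes summed to 11846 to 25125 CPM in GL and 11210 to 26437 in OE, while the shoot meristem gene OSH1 was at 0 in all 36 libraries. Cellulose synthase genes of secondary walls, markers of stem and vascular tissue, summed to 2.47 to 20.6 CPM in GL and 1.40 to 28.5 in OE. Their part in the results was not tested. In bulk leaf RNA, fewer cells of a type and less RNA per cell cannot be told apart.

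In GL the range ran from 2.93 to 8.19 on the log2 scale with a median of 3.44, and these values are the ones that chose the genes. It was at least 3 in 129 genes, at least 4 in 37, at least 5 in 9 and at least 6 in 4. The last gene inside the set, OS02G0106900, had a range of 2.927, and the first outside, OS05G0103300, had 2.910. Ranks 149 and 152 stood at 2.928 (OS10G0432300) and 2.905 (OS08G0524800), so the edge of the set falls within a continuous series. Mean levels at 0:00 spread from 10.1 to 1696 CPM with a median of 57.6. The median coefficient of variation among replicates at that hour was 10.9% in GL and 19.1% in OE. Scaled by TMM instead of library sums, 114 of the 150 genes were still highest at 0:00 in GL and 32 were highest at 4:00.

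For the median gene, most of the fall came between 4:00 and 8:00 and most of the climb between 12:00 and 20:00. Relative to 0:00, the median gene in GL stood at -0.46 at 4:00, -2.98 at 8:00, -3.17 at 12:00, -1.70 at 16:00 and -0.33 at 20:00 on the log2 scale. The medians in OE were -0.36, -2.51, -2.79, -1.69 and -0.30 at the same hours. These medians are on library sums. TMM factors were 0.657 to 0.793 at 8:00, 0.702 to 0.962 at 12:00 and 1.06 to 1.24 at 0:00. The swing from day to midnight is therefore smaller with the TMM scaling of the tests. The lowest GL hour was 12:00 for 87 genes, 8:00 for 52, 16:00 for 10 and 4:00 for 1. The hour next in height to midnight in GL was 20:00 for 84 genes and 4:00 for 61. In 147 genes all 3 GL means of 20:00, 0:00 and 4:00 lay above those of 8:00 and 12:00, which the choice by GL values favours. In OE, which had no part in the choice, the count was also 147. The share over all loci was not counted. Together the 150 genes held 0.184% ± 0.018 of all counts at 12:00 and 2.11% ± 0.10 at 0:00 in GL (SD, n = 3). In OE they held 0.245% ± 0.013 and 2.27% ± 0.27.

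**Figure D1:**
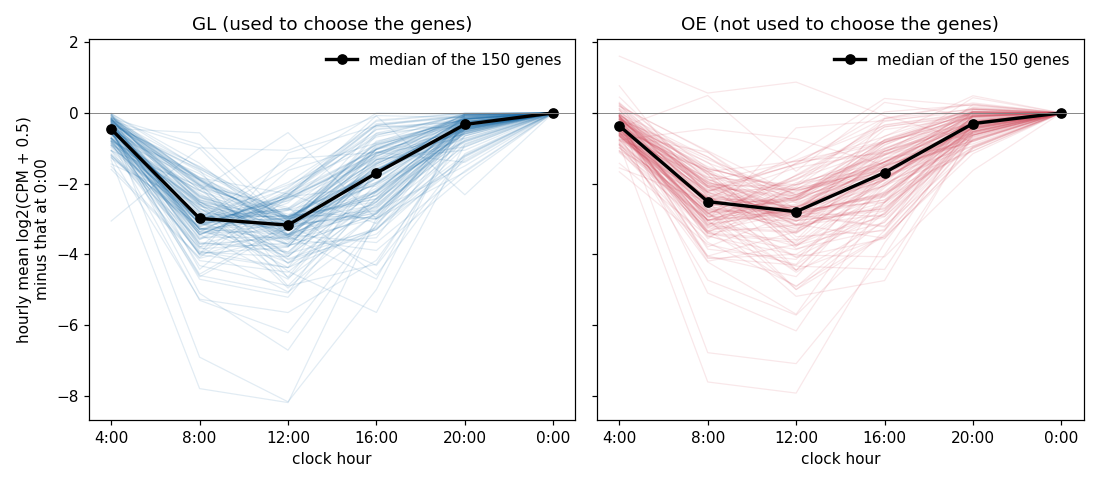
Hourly mean log2(CPM + 0.5) of each of the 150 genes minus its own value at 0:00 (vertical axis) against clock hour, in GL and OE. Thin lines are genes, the black line is their median, and in both genotypes the median is lowest at 12:00 and within 0.5 of the midnight value at 4:00 and 20:00.

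The widest swing belonged to OS04G0119000 (chromosome 4, 1125690 to 1126669, plus strand, build IRGSP-1.0). Its GL libraries read 1.43, 1.04 and 0.813 CPM at 12:00 and 535, 392 and 459 CPM at 0:00. In OE, which had no part in the choice, they read 1.67, 2.21 and 1.40 CPM at 12:00 and 687, 436 and 525 CPM at 0:00. Noon and midnight libraries were far apart in both genotypes, while GL and OE overlapped at midnight. The OE rise from 12:00 to 0:00 was 7.92 on the log2 scale (SE 0.51, edgeR quasi-likelihood test, Benjamini-Hochberg adjusted p = 4.27e-13).

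Close behind it was OS06G0298200 (chromosome 6, 11070140 to 11076862, minus strand). In OE it read 2.19, 3.65 and 3.23 CPM at 12:00 and 404, 484 and 534 CPM at 0:00, a log2 rise of 6.88 (SE 0.25, edgeR adjusted p = 1.62e-18). Its GL libraries at 12:00 read 0.506, 1.83 and 0.722 CPM, all below those of OE. Those GL values rest on 6, 23 and 8 counts and are the low that helped to choose the gene. At 16:00 the libraries read 11.9, 12.7 and 12.4 CPM in GL and 34.2, 23.8 and 28.3 CPM in OE, again without overlap. The gene was higher in OE over the day as a whole by 0.55 log2 (SE 0.09, edgeR adjusted p = 1.68e-05).

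The most abundant of the 150 was OS10G0536500 (chromosome 10, 20893492 to 20895213, plus strand), with 1824, 1591 and 1672 CPM at 0:00 in GL. At 12:00 it read 27.1, 21.4 and 19.1 CPM in GL and 39.4, 42.6 and 35.7 CPM in OE. The OE midnight libraries read 2258, 1984 and 1906 CPM. At 8:00, 12:00, 16:00 and 0:00 every OE library lay above every GL library, and the averaged difference was 0.56 log2 (SE 0.10, edgeR adjusted p = 7.87e-05). Its rise from noon to midnight in OE was 5.31 log2 (SE 0.29, adjusted p = 9.46e-15, edgeR).

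Next in abundance at GL midnight came OS08G0276100, OS01G0929100, OS01G0882500 and OS03G0708100, with means of 1311, 1183, 1082 and 833 CPM. Their courses differed in the afternoon. OS08G0276100 was still low at 16:00 in GL, at 146, 133 and 147 CPM, whereas OS03G0708100 had already reached 621, 567 and 502 CPM. In OE at 0:00 these 4 genes averaged 1433, 1356, 1131 and 776 CPM. None of the 4 passed the test averaged over hours.

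OS02G0724000, OS05G0363500, OS01G0850700, OS07G0143600, OS01G0180300 and OS06G0109000 complete the 10 widest GL ranges. All 10 rose from 12:00 to 0:00 in OE, by 3.82 (OS01G0180300) to 7.92 (OS04G0119000) log2. OS01G0850700 varied widely among replicates, with 48.2, 5.43 and 6.89 CPM at 16:00 in OE against 1.51, 2.01 and 3.47 CPM in GL. The OE libraries of that hour were all above those of GL, but 1 of them was several times the others. OS05G0363500 was near 0 at noon, with 0.337, 0 and 0.181 CPM in GL and 0.351, 0.533 and 0.317 CPM in OE, and read 67.5, 56.4 and 26.4 CPM at OE midnight.

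**Figure D2:**
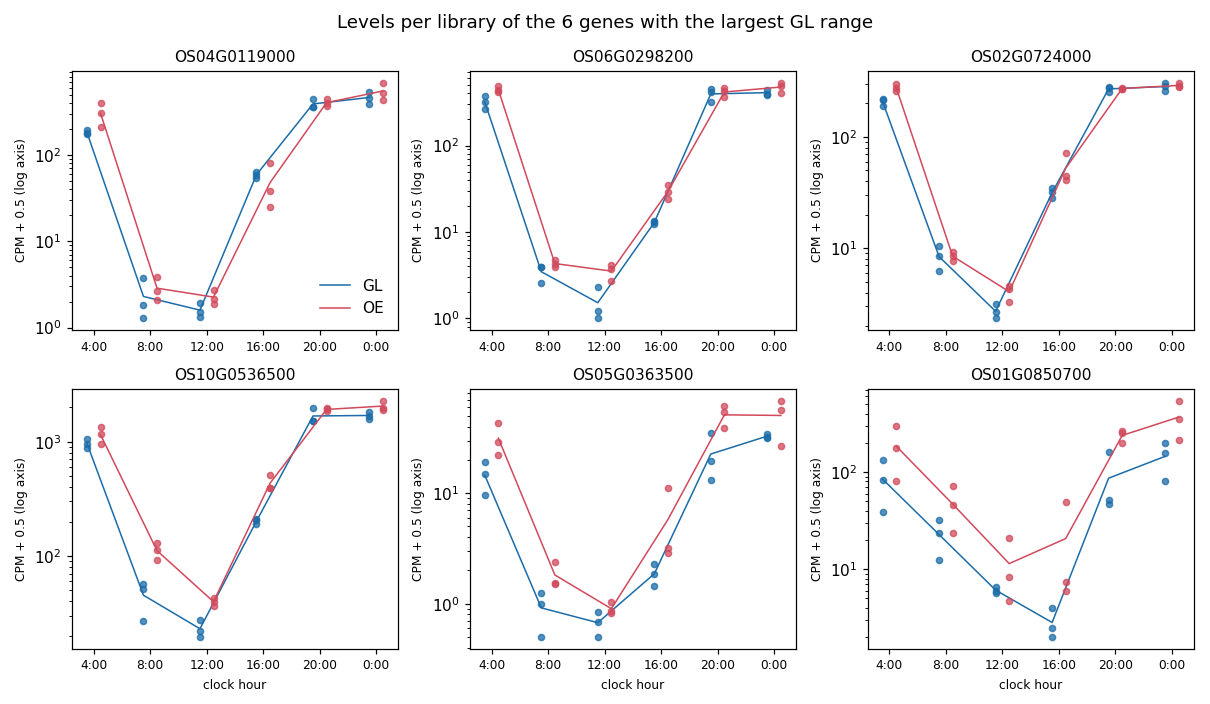
CPM + 0.5 on a log axis against clock hour for the 6 genes with the widest GL range, with 1 point per library (3 per genotype and hour) and lines through the group means. Both genotypes fall by 8:00 or later and climb again by 20:00, and OS01G0850700 has its lowest GL hour at 16:00.

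OE libraries, which did not choose the genes, gave a test of the day course. The test of any difference among the 6 OE hours called 147 of the 150 genes, against 68.6% of all 21772 loci tested (edgeR, adjusted p under 0.05). From 12:00 to 0:00 in OE, 141 genes rose, against a background of 20.6%, and 0 fell, against 20.2%. The median log2 difference by edgeR, with TMM scaling, was 2.47 over the genes and 0.03 over all loci tested. In 145 genes all 3 midnight libraries of OE lay above all 3 noon libraries, against 39.2% of loci tested, both in CPM on library sums. At an unadjusted p under 0.05 edgeR also had 0 lower, against 23.2% of loci, as did DESeq2.

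The 9 genes that did not pass the OE midnight against noon test included OS05G0226300, with a log2 difference of 0.04 (SE 0.40, edgeR adjusted p = 0.957). That gene was lowest at 8:00 in OE, at 4.66, 6.19 and 5.60 CPM, against 70.5, 48.6 and 31.5 CPM at 0:00. It passed the test of the whole OE day (edgeR adjusted p = 2.09e-04). OS10G0109300 had 23.3, 10.7 and 1.59 CPM at noon and 10.5, 19.02 and 11.3 CPM at midnight in OE, which overlap. OS04G0283600 read 0, 8.29 and 0 CPM at OE midnight and 3.53, 7.94 and 18.7 CPM at GL midnight, so its libraries scattered widely within an hour. OS04G0283600, OS10G0109300 and OS02G0739900 also missed the test of the whole OE day. OS05G0226300, OS04G0283600 and OS02G0739900 were named after their values were seen.

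Midnight remained the highest hour in OE for 109 of the 150 genes. Of the loci with at least 10 CPM at OE midnight, 16% had their highest mean there. Among the other 1981 candidates, which passed the same hour and floor in GL but had narrower ranges, it was 856, or 43.2%. The remaining genes of the set were highest at 20:00 (24 genes), 4:00 (15), 8:00 (1) and 16:00 (1). With TMM scaling, which the tests use, 114 were highest at 0:00 in OE, 25 at 4:00, 7 at 20:00, 2 at 8:00 and 2 at 16:00, so the order of 20:00 and 4:00 turns with the scaling. Chosen by the same rule at 20:00, 130 of 150 genes kept 20:00 as the OE peak, and at 4:00, 91 of 150 kept 4:00 and 43 were highest at 8:00.

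Of the 41 genes highest at another hour in OE on library sums, the 4 most abundant at GL midnight had close values at both hours. OS02G0751600 read 373, 324 and 312 CPM at 20:00 and 402, 294 and 288 CPM at 0:00 in OE, and the libraries of both hours overlap. OS11G0605100 read 388, 352 and 337.8 CPM at 20:00 and 329.7, 337.6 and 252 CPM at 0:00, so the lowest library of 20:00 and the highest of midnight were nearly equal. OS06G0685300 was highest at 4:00 in OE, with 280.3, 264 and 214 CPM against 217, 216 and 200.1 CPM at 0:00, and 1 library of 4:00 lay among those of midnight. OS05G0349700 read 233, 195 and 185 CPM at 20:00 and 209.7, 190.1 and 171 CPM at 0:00 in OE, which overlap.

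A 24-h cosine fitted to the hourly means put the median peak at 23.1 h in GL and 23.4 h in OE. The median difference per gene was 0.17 h, with quartiles of -0.17 and 0.34 h, which is small beside the 4 h between samples. With 6 hours of a single day the period is assumed and not measured.

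Ranges were narrower in OE for 125 of the 150 genes, with a median of 3.04 on the log2 scale against 3.44 in GL. The genes were picked for a wide range in GL, so their GL values stand high by the choice and this difference is given as a description. OE ranges ran from 1.47 (OS10G0109300) to 7.92 (OS04G0119000). OS06G0298200 went from 8.17 in GL to 7.09 in OE, whereas OS05G0363500 had 5.64 and 5.81.

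**Figure D3:**
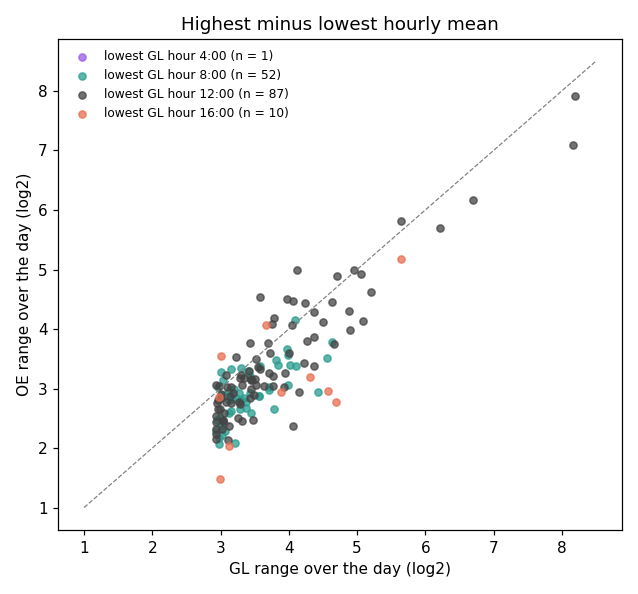
Range over the day in OE against that in GL, both as the highest minus the lowest hourly mean of log2(CPM + 0.5), with 1 point per gene coloured by its lowest GL hour and the line of equal ranges dashed. Of the 150 points 125 lie below the line, and GL values were used to choose the genes.

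Averaged over the 6 hours, 37 genes (24.7%) rose in OE against a background of 14% of loci tested (edgeR, adjusted p under 0.05). The 17 that fell (11.3%) were near the background of 12%. The median difference was 0.14 log2 over the genes and -0.003 over all loci tested. Of the genes called, 8 were at least 2-fold higher and 0 were at least 2-fold lower, against 3.64% and 1.1% of loci tested. The difference had 1 sign at all 6 hours in 28 of the 37 and in 12 of the 17. A call on the mean of the hours favours 1 sign, and the share among all called loci was not counted. When libraries sharing a genotype and a number were treated as a random block in limma voom, 18 rose and 8 fell, all among the genes called before, against backgrounds of 5.32% and 4.82%. Without replicate 2 the counts were 17 and 5, against 5.47% and 4.94%. GL libraries enter both this contrast and the choice of genes. The choice took genes with deep lows in GL, which favours rises in this contrast. The excess of rises over the background is therefore given as a description. Of a list of 19 genes of the clock and of flowering, 18 were tested, and 3 of them rose and 8 fell in the same contrast. The list includes OsPRR37 itself, which OE overexpresses by design, and was chosen with earlier results of these data known. Of the 18, 1 was a midnight candidate, and its range was too narrow for the set.

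OS10G0208500 (chromosome 10, 7685008 to 7696716, plus strand) had the largest rise. It read 80.5, 68.9 and 71.8 CPM at 0:00 in GL and 516, 332 and 242 CPM in OE, and 102, 34.5 and 51.3 CPM against 663, 302 and 257 CPM at 4:00. Every OE library was above every GL library at all 6 hours. Averaged over the day the difference was 1.88 log2 (SE 0.20, edgeR adjusted p = 3.54e-08). Its OE range of 4.53 exceeded the GL range of 3.58, and its OE peak was at 4:00. It overlaps 2 other loci, 1 of them on the other strand.

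OS06G0705901 (chromosome 6, 29825974 to 29826498, minus strand) rose by 1.82 log2 averaged over the day (SE 0.16, edgeR adjusted p = 7.96e-10). Its noon libraries read 0.422, 0.478 and 0.361 CPM in GL and 4.12, 4.49 and 6.53 CPM in OE. At midnight they read 15.9, 12.4 and 12.4 CPM in GL and 34.5, 28.01 and 34.1 CPM in OE. The gap between genotypes was wider at noon than at midnight on the log2 scale, and libraries did not overlap at either hour. The GL noon values rest on 5, 6 and 4 counts. They are also the low that helped to choose the gene, so a wide gap at noon follows in part from the choice. OS06G0705901 overlaps 1 locus on the other strand, and the kit does not record strand, so reads of that pair cannot be told apart.

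Among the genes called, the largest falls were smaller than the largest rises. OS01G0881800 (chromosome 1, 38273404 to 38274510, plus strand) read 50.0, 53.8 and 47.1 CPM at 20:00 in GL and 38.3, 30.2 and 38.2 CPM in OE, without overlap, and 53.5, 58.7 and 68.9 against 55.4, 45.8 and 54.2 CPM at 0:00, with overlap. The averaged difference was -0.62 log2 (SE 0.14, edgeR adjusted p = 0.00105), and without replicate 2 it was -0.44 (adjusted p = 0.0886). OS04G0585050 (chromosome 4, 29552395 to 29552970, plus strand) read 17.3, 13.4 and 15.7 CPM at 20:00 in GL and 10.7, 8.91 and 9.17 CPM in OE. Its averaged difference was -0.62 log2 (SE 0.12, edgeR adjusted p = 2.85e-04).

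**Figure D4:**
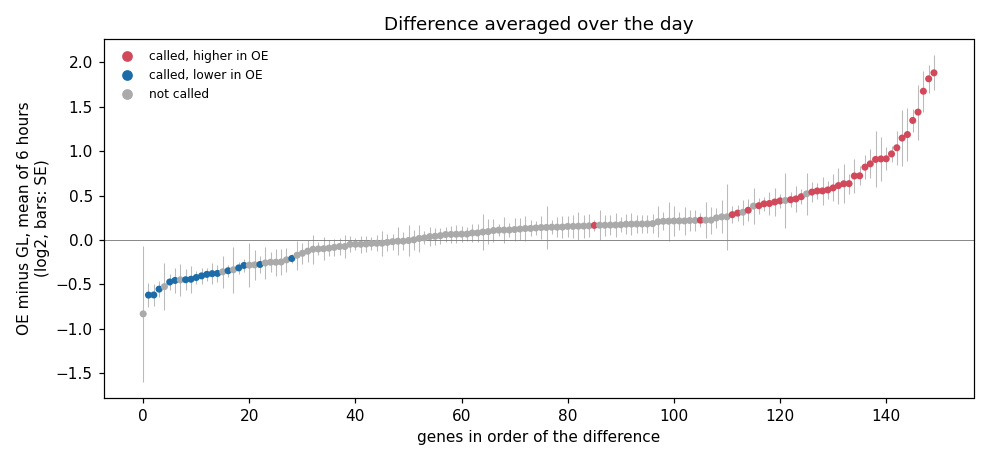
Difference OE minus GL averaged over the 6 hours (log2, edgeR, bars are SE) for the 150 genes in order of the difference, coloured by the call at adjusted p under 0.05. The 37 higher calls reach 1.88 and the 17 lower calls reach -0.62, and the choice of genes by GL values favours higher calls.

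Taken hour by hour, the comparison of OE with GL uses the GL hours that chose the genes, so the counts are descriptions. At 0:00, 2 genes were higher and 0 lower by edgeR, against 1.28% and 1.05% of loci tested, and 4 were lower at an unadjusted p under 0.05, against 5.27%. At 4:00 it was 3 and 3 (1.97% and 2.51%), and at 20:00 it was 5 and 1 (1.1% and 1.41%). By day, 11 were higher and 0 lower at 8:00 (1.94% and 1.37%), where edgeR had 12 lower at an unadjusted p under 0.05, against 7.82%. The counts were 8 and 1 at 12:00 (1.42% and 0.597%). At 16:00 they were 14 and 4 (4.75% and 3.16%). Median differences of the genes were 0.33 at 8:00 and 0.27 at 12:00 but 0.02 at 0:00 and -0.06 at 16:00 on the log2 scale. Scaled to library sums instead of TMM, the median over all loci tested was 0.13 at 4:00 and 0.16 at 12:00, and the medians of the genes were then 0.18 and 0.41.

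The 10 genes with their lowest GL hour at 16:00 were the group whose OE levels at 16:00 stood furthest above GL. Their median OE difference at 16:00 was 2.02 log2 by edgeR, against -0.18 for the 52 genes lowest at 8:00 and -0.002 for the 87 lowest at 12:00. The hour was picked as their GL minimum, so a positive difference follows in part from the choice. Examples named after their values were seen are OS09G0554300, with 1.23, 2.42 and 1.86 CPM in GL and 18.0, 24.8 and 18.96 CPM in OE, and OS02G0208500, with 3.21, 1.85 and 2.62 CPM and 24.8, 14.2 and 11.4 CPM. In 7 of the 10, all OE libraries of 16:00 were above all GL libraries. The choice of the hour by GL values favours this separation too, and its share over all loci was not counted. OE was lowest at 12:00 in 6 of the 10 and at 16:00 in 4. At 16:00, OE replicate 1 was above the mean of the other 2 in 131 of the 150 genes, by a median of 0.57 log2, while over all loci tested its median was -0.10. Without it, the median of the 10 genes on the log2(CPM + 0.5) scale was 0.97, and with it 1.37.

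**Figure D5:**
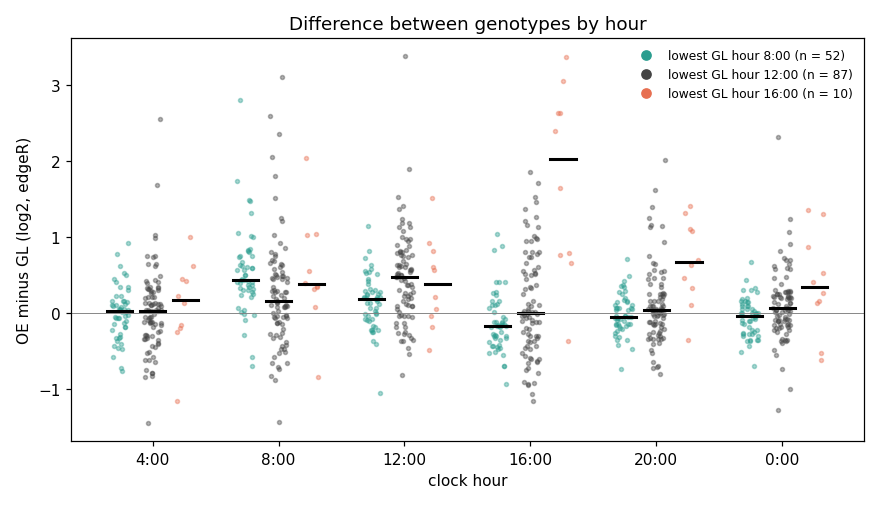
Difference OE minus GL by clock hour (log2, edgeR) for genes grouped by their lowest GL hour, with 1 point per gene and black bars for group medians. The 10 genes lowest at 16:00 have a median of 2.02 at that hour, which the choice of hour by GL values affects.

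The 150 genes were spread over all 12 chromosomes. Chromosome 1 held 28 (18.7%, against 14.4% of tested loci with OS identifiers) and chromosome 11 held 5 (3.33%, against 4.96%). Their median transcript length was 1957 bases, against 2099 for all candidates and 1624 for tested loci with OS identifiers. Some lie together: 24 genes fall into 10 runs in which neighbours are within 100 kb. How many such runs other loci would form was not counted. The largest run is on chromosome 1, from 38196864 to 38325583, where 5 of 18 tested loci belong to the set. Those are OS01G0880200, OS01G0880250, OS01G0881800, OS01G0882500 and OS01G0883000.

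Part of this closeness is overlap on the chromosome. There were 7 pairs of overlapping genes within the set, all on opposite strands, and their levels over 36 libraries had a Pearson r of 0.891 to 0.992. All genes of the set were chosen for a midnight peak and a wide range. A high r over the day therefore follows in part from the choice, and pairs without overlap were not compared. Unstranded reads from an overlapping pair are not separable, so the 14 genes are not 14 independent observations. In all, 65 genes overlap some other locus of the files, 61 of them on the other strand, and the share over all loci was not counted. Of the 85 that overlap none, 65 were highest at 0:00 in OE.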

How the data were processed

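Per the submitters' processing notes, reads were processed with TopHat2, Cufflinks and Cuffdiff on build IRGSP-1.0, with versions and settings not given in the sources used here. The count column that the authors deposited was taken as estimated counts rounded up to whole numbers, since 99.7% of counts above 0 lay at most 1 above the deposited normalised value after scaling by 1 factor per library. The authors' deposited FPKM values (levels per transcript length and library) served only as an alternative. The authors' deposited normalised values, a signal scaled between libraries, served only for that check. CPM was the count over its library sum times 1000000, and log2 values used a pseudocount of 0.5.

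Differential expression was tested on the counts with edgeR 4.0.16 in R 4.3.3 (filterByExpr with minimum count 10, TMM scaling, quasi-likelihood F tests in 1 model of 12 groups over 36 libraries, Benjamini-Hochberg adjustment over the 21772 loci kept, threshold 0.05). All 150 genes passed the filter. Alternatives used limma 3.58.1 and DESeq2 1.42.0, and the tests were tried on simulated data. Replicate numbers were not taken to pair libraries. The genes and comparisons were chosen with earlier results of these data known. Genes named in the text are those with the 10 widest GL ranges, the 5 highest GL midnight levels, OE ranges at either extreme, the 2 largest called rises and falls, the 4 most abundant genes with another OE peak, and those at the edge of the set; others are stated as chosen after their values were seen. A few identifiers, function classes, promoter motifs and sequences are not analysed here. Where total counts are small, precision is limited by counting error as well as by the 3 replicates.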

Additional observations from a re-analysis of the deposited data

How the results depend on the processing

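The OE day test called 139 to 148 of the 150 genes under every alternative run, and the OE midnight against noon test called 137 to 145. Leaving out single libraries gave 145 to 148 and 138 to 145. The averaged OE against GL counts moved most. Against 37 higher and 17 lower, the random block of genotype and replicate number in limma voom gave 18 and 8, with an estimated correlation of 0.195 within a block. Leaving out a replicate number gave 17 to 32 higher and 5 to 19 lower, with the lowest values without replicate 2, and single libraries gave 30 to 38 and 15 to 19. Without replicate 1, 2 or 3, higher calls were 20%, 11.3% and 21.3% of the set, against 16.9%, 5.47% and 6.49% of loci. Lower calls were 12.7%, 3.33% and 8% of the set, against 14.2%, 4.94% and 6.42% of loci. The cause of these shifts was not tested. Over all loci the averaged count was 5662, 2209 with the random block, 2272 without replicate 2 and 2814 without replicate 3, and the OE midnight against noon count was 8889, 5678 without replicate 2 and 5871 without replicate 3. With the replicate block the 4 counts of the set were 148, 145, 41 and 19, and the block changed no other call by over 1.5 times. The 41 and 19 stood against 17.2% and 15.7% of loci tested. Libraries of GL and OE with the same hour and number deviated together with r from 0.064 to 0.521 over 18 pairs. Not all were above 0.1, and the median was 0.215. Libraries of the same genotype and number at 2 hours had a median r of 0.165 in GL and 0.305 in OE. The main model has no term for the number and treats libraries as independent. Chosen again, 118 to 121 of the 150 genes were kept without a replicate number, 110 with TMM scaling and 122 with a pseudocount of 2. The genes highest at 0:00 in OE numbered 106 to 114 under the alternatives run. With 3 libraries per group and genes as low as 0 at noon, folds of the lowest genes rest on few counts.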
